A study of Mus musculus with 6 samples.

Results

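Genes of cell adhesion were followed in differentiated cells derived from mouse embryonic stem cells. Such stem cells form aggregates, called embryoid bodies, when they are set to differentiate. The genes were chosen by name as the protein-coding protocadherins, cadherins and neural adhesion molecules, and 47 of the 2031 deposited genes met that rule. The cells were J1 embryonic stem cells (strain 129S4/SvJae) induced towards heart muscle in hanging drops, in which embryoid bodies formed over 3 days. The controls, called NC, came from a conventional incubator (3 libraries), and the cells called MF came from an incubator with a static magnetic field (3 libraries). All cells were of the same line, and the stem cell medium held leukemia inhibitory factor. The series calls the libraries biological triplicates, and the sources used here do not give field strength, exposure time or collection day. Totals per library ran from 14929232 to 19176383 counts, of which the 47 genes took 4453, 3304 and 4843 in NC replicates 1, 2 and 3 and 24707, 11886 and 19646 in MF replicates 1, 2 and 3.

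Cadherins are membrane proteins that bind the same or related cadherins on the next cell through calcium-dependent extracellular repeats. The classical ones link to the actin skeleton through catenins, desmosomal ones anchor intermediate filaments, and Fat and Dchs proteins pass signals of planar polarity between neighbours. Clustered protocadherins are made from arrays of variable exons and give neurons a surface identity. Contactins, leucine-rich repeat proteins, immunoglobulin-family adhesion molecules and receptor tyrosine phosphatases act in axon growth and synapse assembly, and many of them are also used outside the nervous system, for example in endothelium and in the developing heart.

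The deposited table is itself a selection. In the authors' deposited table every gene had an adjusted p of no more than 0.0499 for MF against NC, with an absolute log2 fold change from 1.001 upwards, so each of the 47 genes was already past those limits. The reference annotation holds 197 protein-coding genes whose names meet the same rule; the other members are outside the table and were not analysed here. Because selection and test rest on the same 6 libraries, a call adds no support to a gene, and "rose" and "fell" below mean only an adjusted p under 0.05 in edgeR's quasi-likelihood test over the table. Nothing in the labels other than the group separates the libraries, and with 3 libraries a group the p-values measure the spread between these libraries. In bulk RNA more cells of a type and more RNA per cell cannot be told apart.

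Promoter sequences are shown for the 3 adhesion genes that hold a CAGGTG or CACCTG box, the letters bound by the Snai and Zeb repressors of the epithelial cadherin. RefSeq promoters (GRCm38.p6, from 250 bases before to 50 bases after the start) were at hand for 16 of the 47 genes, as 19 promoters. The capitals mark the box, searched on both strands. Igsf10 and Pcdh7 rose in MF, Igsf23 was the only member that fell, and its box lies at a second start upstream of the gene span in the files.
Igsf10, chr3:59344207-59344506, minus strand: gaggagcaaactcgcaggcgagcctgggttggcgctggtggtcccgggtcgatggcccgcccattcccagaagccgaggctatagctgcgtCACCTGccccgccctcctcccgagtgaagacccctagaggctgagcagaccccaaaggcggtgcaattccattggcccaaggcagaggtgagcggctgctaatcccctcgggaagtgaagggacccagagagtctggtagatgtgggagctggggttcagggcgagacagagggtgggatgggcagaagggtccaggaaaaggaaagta
Igsf23, chr7:19953605-19953904, minus strand: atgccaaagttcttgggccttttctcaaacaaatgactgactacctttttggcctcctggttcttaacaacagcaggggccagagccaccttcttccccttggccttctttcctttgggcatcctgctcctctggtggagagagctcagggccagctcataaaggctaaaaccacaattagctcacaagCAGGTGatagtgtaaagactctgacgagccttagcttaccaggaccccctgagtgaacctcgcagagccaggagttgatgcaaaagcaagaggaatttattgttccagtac
Pcdh7, chr5:57717831-57718130, plus strand: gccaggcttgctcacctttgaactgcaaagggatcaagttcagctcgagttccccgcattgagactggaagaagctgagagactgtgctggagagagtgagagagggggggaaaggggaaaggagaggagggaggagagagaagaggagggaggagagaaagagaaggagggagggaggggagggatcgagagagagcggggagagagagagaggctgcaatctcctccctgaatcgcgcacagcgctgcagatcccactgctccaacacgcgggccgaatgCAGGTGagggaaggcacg
The box begins 159 bases before the start in Igsf10, 61 bases before it in Igsf23 and 32 bases after it in Pcdh7. It was found in 3 of the 19 member promoters, against 20.2% of all 32851 RefSeq promoters, and the partial site TTCAGCACC of the neuronal repressor REST was found in 0 of the 19, against 0.371% of all. The member promoters held a median of 13.0 CG pairs, against 7.0 over all promoters, and a median GC content of 59.3%, against 52.7%. These matches describe letters in a window and show no binding.

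Almost all of the adhesion genes were higher in MF. By the fold changes in the authors' deposited table, 46 of the 47 were higher, against 63.2% of all deposited genes. In the edgeR fit of named genes without a filter, 46 rose and 1 fell, where 62.8% of all tested genes rose and 34.9% fell. In the fit restricted to a mean of at least 0.5 FPKM (a level scaled to gene length and library size), 25 members were tested, of which 24 rose and 1 fell, against 62.1% and 35.4% of the genes tested. The other 22 members lie below that filter, and their statistics come from the fit without it. For 46 members every MF library was above every NC library, as it was for 59.3% of all named genes, and for Igsf23 every MF library was below, as for 33.7%. Among the 1274 named genes that were higher in MF, 1176 had every MF library above every NC library, so such separation was common to higher genes. Over the 46 genes that were higher the median log2 fold change was 2.19, and over all named genes with a positive value it was 1.77. The largest log2 fold change was that of Pcdh11x, at 5.36, and the smallest positive one that of Celsr1, at 1.18.

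**Figure D1:**
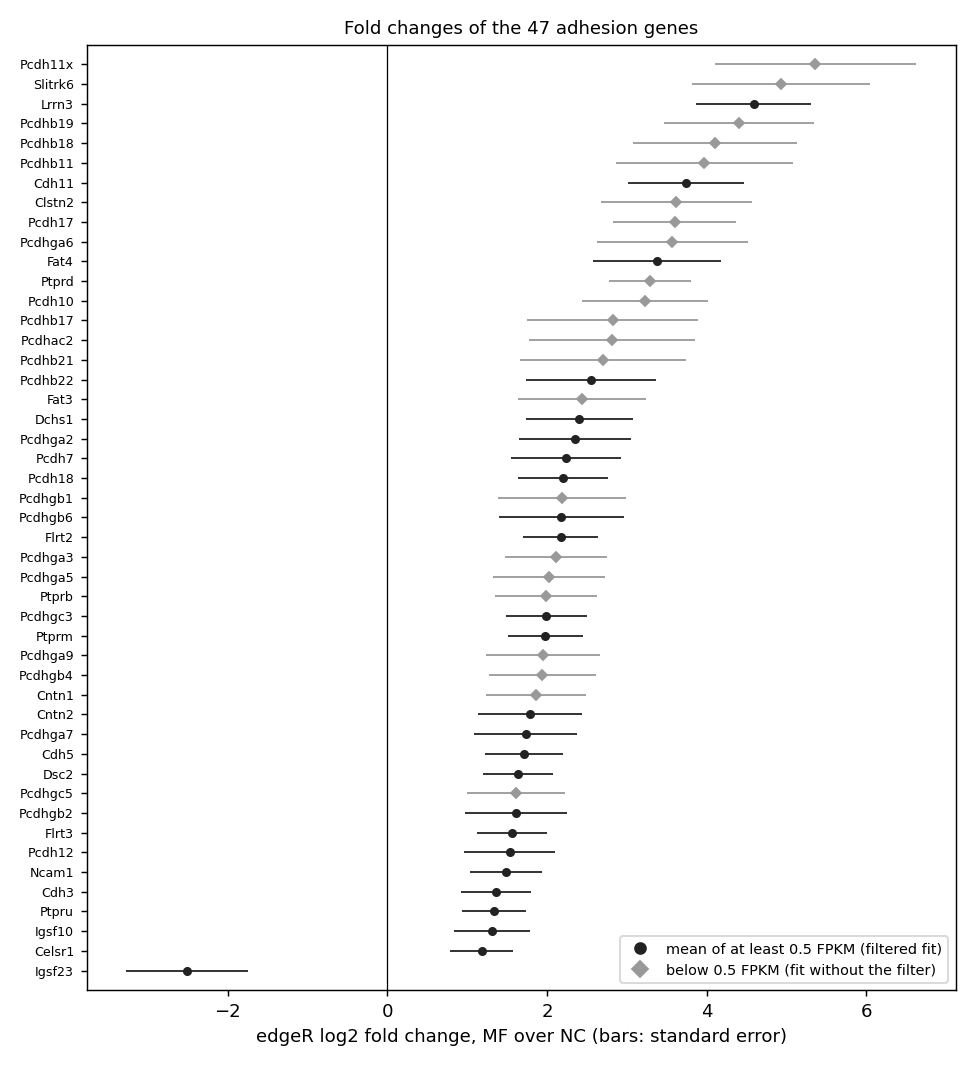
Log2 fold change of MF over NC from edgeR for each of the 47 adhesion genes, with bars of 1 standard error; circles come from the fit of genes with a mean of 0.5 FPKM or more and diamonds from the fit without a filter. Igsf23 alone lies below 0, and the other genes lie between 1.18 and 5.36.

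These calls depend on the number of tests and on single libraries. The authors' p-values and adjusted p-values imply 19069 tests. Adjusted over that number, edgeR called 0 members, and 0% of all genes with the filter and 0.252% (higher) without it. In the fit without a filter 47 of the 47 had an unadjusted edgeR p under 0.05, as had 1939 of all 1983 named genes. DESeq2 with the adjustment over 19069 tests called 16 higher and 1 lower of the 25, where it called 29.0% and 7.21% of the tested genes. Of the 25 members, edgeR called 1 higher when MF replicate 3 was left out, 12 when MF replicate 1 was, and 13 when NC replicate 1 was, where it called 0.727%, 21.6% and 25.6% of all tested genes higher. Of the 47 in the fit without a filter it called 3, 27 and 27 in the same order, against 3.13%, 28.9% and 31.4% of all named genes. Lrrn3 and Ptprd kept an adjusted p under 0.05 whichever library was left out. Scaling by TMM, which sets the selected genes themselves as the reference, left 9 higher and 1 lower (17.6% and 35.7% of all tested genes) and moved the median log2 fold change of all tested genes by -0.70; median-of-ratios scaling left 5 higher and 1 lower (9.57% and 30.7%) and moved it by -1.06. Over all tested genes 63.7% of the calls were higher in MF with the library totals, 33.1% with TMM and 23.8% with median-of-ratios scaling. The sign of all 25 members tested stayed as reported under both scalings. With the replicate number as a block 24 rose and 1 fell (62.4% and 35.7% of all tested genes), and without the filter 46 and 1 (62.9% and 35.3%).

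Among the numbered cadherins, 3 of 23 annotated genes were deposited, all on chromosome 8, and all 3 rose. Cdh3, the classical P-cadherin of epithelia (mm10 chromosome 8, 106510891 to 106557297), stood at 12.3, 17.7 and 12.8 FPKM in NC replicates 1, 2 and 3 and at 49.1, 19.8 and 41.1 FPKM in MF replicates 1, 2 and 3. MF replicate 2 lay just above NC replicate 2, the highest control, and the other MF libraries lay far above all controls. The group means were 14.3 ± 3.00 and 36.7 ± 15.2 FPKM (SD, n = 3; log2 fold change 1.36, SE 0.44, edgeR adjusted p = 0.0258). Cdh11, a classical cadherin of mesenchyme (chromosome 8, 102632095 to 102785642), stood at 1.97, 0.328 and 2.32 FPKM in NC and at 25.8, 9.51 and 26.1 FPKM in MF. All MF libraries were well above the controls, and replicate 2 was the lowest library of each group. Cdh11 rose 13.3-fold, the largest rise among the members with a mean above 2 FPKM (means 1.54 ± 1.06 and 20.5 ± 9.50 FPKM, SD, n = 3; log2 fold change 3.74, SE 0.73, edgeR adjusted p = 0.0113).

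Mesenchyme marker genes rose, as Cdh11 did. Of 12 listed markers of mesenchyme and smooth muscle 9 were deposited and all 9 rose. Their summed level ran from 90.9 to 248 FPKM in NC and from 224 to 1159 FPKM in MF. In this sum MF replicate 2 was lowest of the exposed libraries and lay below NC replicate 1, the highest control. Most of the sum was Col1a1, at 192 FPKM in NC replicate 1 and 127 FPKM in MF replicate 2. Col1a2 stood at 36.7 and 30.6 FPKM in these libraries. For Col3a1, Postn, Dcn, Lum, Pdgfra, Pdgfrb and Twist1, MF replicate 2 lay above every control, as for Cdh11. None of the 9 was at 0 counts in either group. Their part in the Cdh11 result was not tested. The list of repressors of the epithelial cadherin had 5 of 10 members deposited and all 5 rose. It includes the Snai and Zeb factors named with the boxes above, and also other factors. The most abundant of the 5 was Twist1, at 3.45, 2.17 and 5.68 FPKM in NC and 67.2, 17.3 and 68.2 FPKM in MF. Snai2 rose 8.43-fold and Zeb1 2.76-fold.

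Cdh5, the VE-cadherin that joins endothelial cells (chromosome 8, 104101625 to 104144511), stood at 2.28, 3.99 and 6.49 FPKM in NC and at 19.5, 9.11 and 13.2 FPKM in MF. It rose 3.28-fold (means 4.25 ± 2.12 and 13.9 ± 5.23 FPKM, SD, n = 3; log2 fold change 1.71, SE 0.49, edgeR adjusted p = 0.0230). A pair of other members is also known from endothelium. Ptprb, the receptor phosphatase VE-PTP that binds Cdh5, stood at 0.0814, 0.121 and 0.286 FPKM in NC and at 1.0, 0.420 and 0.525 FPKM in MF, and Pcdh12, an endothelial protocadherin, stood at 0.232, 0.287 and 0.553 FPKM in NC and at 1.35, 0.855 and 0.903 FPKM in MF. All 3 genes were highest in MF replicate 1 and lowest of the exposed libraries in MF replicate 2, and among controls all were highest in NC replicate 3. Ptprb rose 3.98-fold and Pcdh12 2.90-fold.

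The endothelial markers did not all go the same way. Of 12 listed markers 5 were deposited; Kdr, Emcn, Cd34 and Esam rose 5.83-fold, 9.64-fold, 4.56-fold and 2.96-fold, and Pecam1 fell 2.75-fold. Pecam1 stood at 8.43, 38.2 and 8.75 FPKM in NC and at 6.41, 7.93 and 5.81 FPKM in MF, so its NC mean rested on NC replicate 2. It was highest in replicate 2 of each group, as was the summed level of the deposited naive pluripotency markers given further below. The part of pluripotent cells in the Pecam1 level was not tested. With Pecam1 included the summed level of the 5 endothelial markers ran from 11.2 to 40.6 FPKM in NC and from 16.2 to 28.0 FPKM in MF. None of the 5 was at 0 counts in a group. Of 12 listed blood markers, which include the leukocyte phosphatase Ptprc, 0 were deposited. The part of these cells in the levels of Cdh5, Ptprb and Pcdh12 was not tested.

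**Figure D2:**
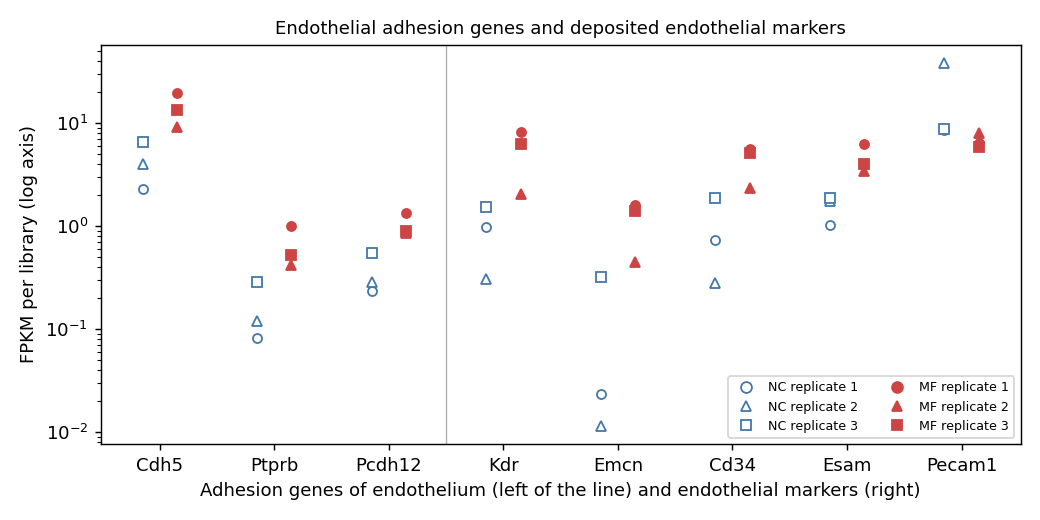
FPKM in each library, on a log axis, for the 3 adhesion genes of endothelium and the 5 deposited endothelial markers; open symbols are NC, filled symbols MF, and the shape gives the replicate. Cdh5, Ptprb, Pcdh12, Kdr, Emcn, Cd34 and Esam are higher in every MF library, and Pecam1 is highest in NC replicate 2 at 38.2 FPKM.

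Of the 9 annotated desmosomal cadherins Dsc2 was deposited. Dsc2, a desmocollin of heart muscle and epithelia (chromosome 18, 20030633 to 20059554), stood at 4.37, 2.48 and 5.41 FPKM in NC and at 14.9, 8.48 and 14.8 FPKM in MF. It rose 3.12-fold with no overlap of the groups (means 4.09 ± 1.48 and 12.7 ± 3.69 FPKM, SD, n = 3; log2 fold change 1.64, SE 0.44, edgeR adjusted p = 0.0202). Of the 10 listed genes of the desmosome plaque and keratins 0 were deposited. Of the 10 listed catenins and cadherin regulators 1 was deposited, the heart and testis catenin Ctnna3, with 0 counts over the NC libraries and 65 counts over the MF libraries. Of 10 cardiomyocyte markers 8 were deposited and all 8 rose, with a summed level from 30.7 to 71.3 FPKM in NC and from 120 to 652 FPKM in MF and none at 0 counts in a group; their part in the Dsc2 result was not tested.

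Of 9 annotated giant cadherins 4 were deposited and all 4 rose, among them both members of a ligand and receptor pair. Dchs1, the ligand of Fat4 (chromosome 7, 105752990 to 105787654), stood at 1.17, 0.180 and 1.0 FPKM in NC and at 5.58, 2.11 and 4.71 FPKM in MF. Fat4, its receptor (chromosome 3, 38886940 to 39011985), stood at 0.171, 0.0181 and 0.285 FPKM in NC and at 1.83, 1.06 and 2.03 FPKM in MF. In both genes replicate 2 was the lowest library of its group, and the exposed libraries lay above all controls. Dchs1 rose 5.27-fold (log2 fold change 2.40, SE 0.67, edgeR adjusted p = 0.0219) and Fat4 rose 10.4-fold (log2 fold change 3.38, SE 0.80, edgeR adjusted p = 0.0153). Fat3, of the same family, rose 5.43-fold from 0.0914 ± 0.0730 to 0.497 ± 0.101 FPKM (SD, n = 3), with 3 counts in NC replicate 2.

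Celsr1, a core protein of planar cell polarity (chromosome 15, 85898929 to 86033777), had the smallest rise of the members and little spread. It stood at 0.957, 0.914 and 1.22 FPKM in NC and at 2.35, 2.55 and 2.08 FPKM in MF, with MF replicate 2 the highest library. It rose 2.26-fold (log2 fold change 1.18, SE 0.39, edgeR adjusted p = 0.0265). Of the 19 other listed genes of the Fat, Dchs and planar polarity pathway 3 were deposited and all 3 rose: Prickle1 by 2.33-fold, Ankrd1, a target of the Yap1 cofactor, by 2.44-fold and Prickle2 by 2.20-fold.

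Of the 12 annotated protocadherins outside the clusters 6 were deposited, and all 6 rose. Pcdh18 (chromosome 3, 49743296 to 49757325) was the most abundant, at 4.70, 1.38 and 3.18 FPKM in NC and at 18, 6.88 and 17.6 FPKM in MF. Pcdh7 (chromosome 5, 57717967 to 58133230) stood at 1.16, 0.199 and 1.88 FPKM in NC and at 5.94, 3.33 and 6.03 FPKM in MF. Pcdh17 stood at 0.103, 0.0143 and 0.0309 FPKM in NC and at 0.795, 0.367 and 0.662 FPKM in MF. In these 3 genes MF replicate 2 was between the controls and the other exposed libraries. Pcdh18 rose 4.58-fold (log2 fold change 2.20, SE 0.56, edgeR adjusted p = 0.0185), Pcdh7 4.72-fold (log2 fold change 2.24, SE 0.69, edgeR adjusted p = 0.0243) and Pcdh17 12.2-fold. Pcdh10 stood at 0.269, 0.240 and 0.236 FPKM in MF, nearly the same in each exposed library, and rose 9.40-fold from 0.0261 ± 0.0213 FPKM (SD, n = 3). Pcdh11x had 2 counts over the NC libraries against 108 over the MF libraries, a ratio of 48.3 with an exact 95% counting interval from 13.0 to 404, and MF replicate 2 held 7 of those 108 counts.

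**Figure D3:**
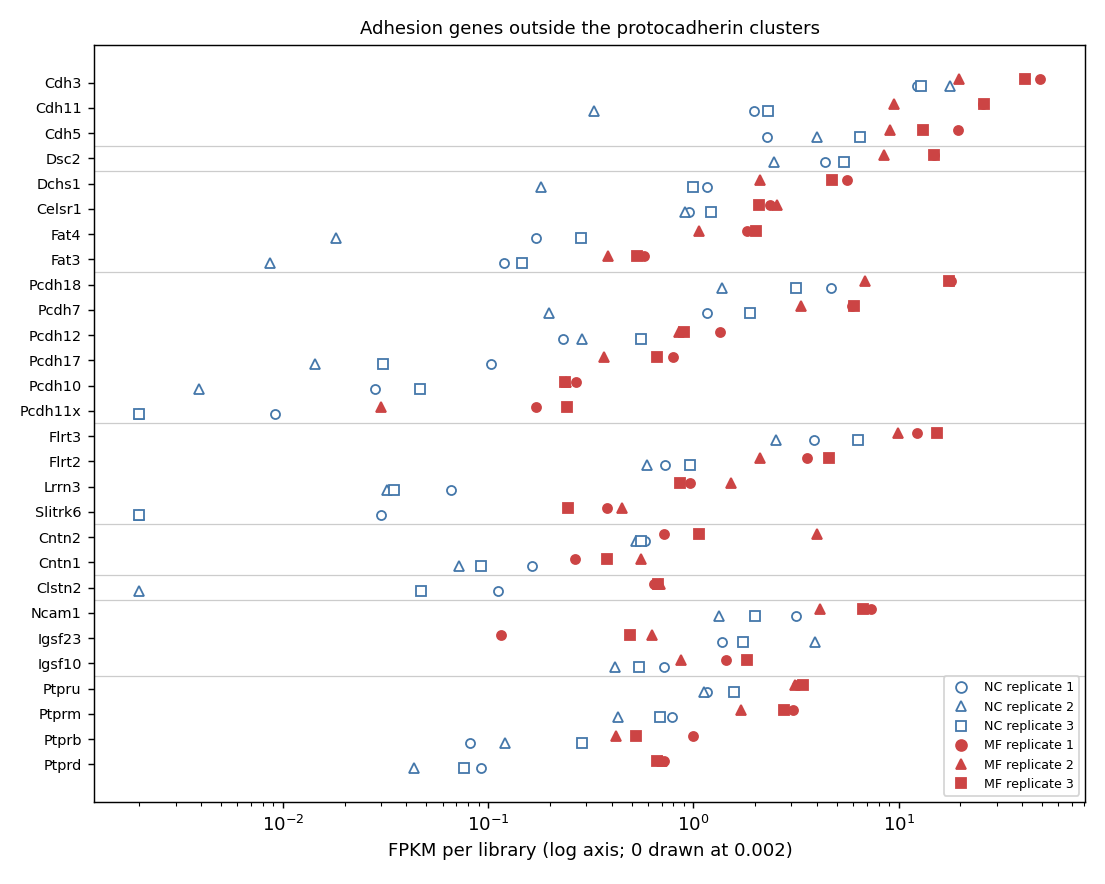
FPKM in each library, on a log axis, for the 28 adhesion genes outside the protocadherin clusters, in classes divided by grey lines; open symbols are NC, filled symbols MF, and the shape gives the replicate. The groups do not overlap in any gene, MF replicate 2 is usually the lowest exposed library, and Cntn2 is highest there at 4.0 FPKM.

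Clustered protocadherins made up 19 of the 47 genes, and all 19 rose. They lie in 698 kb of chromosome 18 (mm10 37143503 to 37841873), all on the plus strand, and no other deposited gene starts and ends inside that span. One of 14 annotated Pcdha genes was deposited, 6 of 22 Pcdhb genes and 12 of 21 Pcdhg genes. Their levels were low: counts in a single library ran up to 112 in NC and down to 8 in MF, and 13 of the 19 had a mean under 0.5 FPKM. Their log2 fold changes ran from 1.61 to 4.4, with a median of 3.40 for the 6 Pcdhb genes and 2.00 for the 12 Pcdhg genes; this difference was not tested, and NC counts of the Pcdhb genes were few.

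Pcdhgc3, towards the far end of the gamma cluster, was the most abundant clustered gene, at 1.30, 0.531 and 1.22 FPKM in NC and at 5.61, 2.85 and 3.64 FPKM in MF. Pcdhb22, the last deposited gene of the beta cluster, stood at 0.522, 0.0282 and 0.466 FPKM in NC and at 2.19, 2.04 and 1.71 FPKM in MF. The gamma gene was lowest of the exposed libraries in MF replicate 2, whereas the 3 exposed libraries were close together for the beta gene. Pcdhgc3 rose 3.97-fold (log2 fold change 1.99, SE 0.51, edgeR adjusted p = 0.0190) and Pcdhb22 5.84-fold (log2 fold change 2.55, SE 0.81, edgeR adjusted p = 0.0254). Pcdhgb6 stood at 0.395, 0.0398 and 0.257 FPKM in NC and at 1.49, 0.864 and 0.80 FPKM in MF, and Pcdhgb2 stood at 0.327, 0.127 and 0.439 FPKM in NC and at 1.04, 0.585 and 1.12 FPKM in MF. They rose 4.54-fold and 3.06-fold.

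In the beta cluster NC replicate 2 was the lowest control for all 6 genes, and 5 of them had 0 counts there. Pcdhb11 and Pcdhb18 each had 3 counts over the NC libraries, and their ratios of MF to NC were 17.3 (exact 95% counting interval from 5.63 to 86.2) and 18.8 (6.13 to 93.4). Pcdhb19 rose 21.1-fold, Pcdhb17 7.04-fold and Pcdhb21 6.51-fold. Pcdhac2, the deposited alpha gene, rose 7.01-fold from 0.0625 ± 0.0577 to 0.444 ± 0.306 FPKM (SD, n = 3), with 15 of its 141 MF counts in MF replicate 2. The remaining gamma genes, Pcdhga2, Pcdhga3, Pcdhga5, Pcdhga6, Pcdhga7, Pcdhga9, Pcdhgb1, Pcdhgb4 and Pcdhgc5, rose between 3.06-fold (Pcdhgc5) and 11.9-fold (Pcdhga6).

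Levels within the clusters are uncertain because the genes share sequence. In the annotation the gamma genes share from 37.9% to 66.9% of their exonic bases with another gene, through the constant exons at the end of the cluster, and the deposited gene length includes those bases. The sources used here do not say whether reads in shared exons were counted. Reads from exons common to all gamma genes, if counted in full for each, would give these genes a common minimum. The fewest counts of a deposited gamma gene were 5 over the NC libraries (Pcdhga6) and 52 over the MF libraries (Pcdhgb1). No more than these can have been counted that way. Pcdhgc3 had 259 counts over the NC libraries and 1181 over the MF libraries. If no shared reads were counted, the level of a gamma gene per unshared base would be from 1.61 to 3.02 times the FPKM given, with the fold between groups unchanged. The beta genes share up to 9.67%, but they are similar in sequence, so reads may also have been split among them or with genes outside the table.

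**Figure D4:**
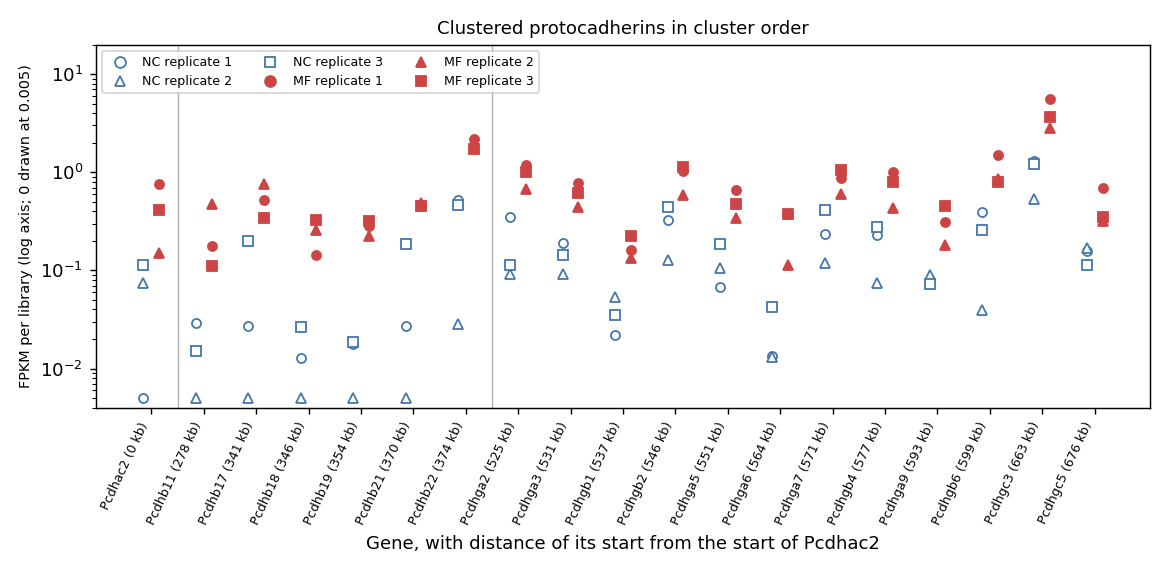
FPKM in each library, on a log axis, for the 19 clustered protocadherins in the order of their starts, each labelled with its distance in kb from the start of Pcdhac2; vertical lines divide the alpha, beta and gamma clusters, open symbols are NC, filled symbols MF, and a level of 0 is drawn near the foot of the axis. Every MF library is above every NC library for each gene, and Pcdhgc3 is the highest at 5.61 FPKM in MF replicate 1.

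Of 18 annotated leucine-rich repeat adhesion genes 4 were deposited, and all 4 rose. Flrt3, a membrane ligand of Unc5 receptors and latrophilins (chromosome 2, 140650914 to 140671469), stood at 3.86, 2.53 and 6.37 FPKM in NC and at 12.3, 9.96 and 15.4 FPKM in MF. Flrt2, which binds the same receptor families (chromosome 12, 95692226 to 95785215), stood at 0.728, 0.595 and 0.963 FPKM in NC and at 3.59, 2.10 and 4.60 FPKM in MF. Both were highest in MF replicate 3 and lowest of the exposed libraries in MF replicate 2. Flrt3 rose 2.95-fold (log2 fold change 1.56, SE 0.44, edgeR adjusted p = 0.0227) and Flrt2 4.49-fold (log2 fold change 2.17, SE 0.47, edgeR adjusted p = 0.0130). A list of 17 genes around these proteins held latrophilins, Unc5 receptors, teneurins, Slit cues and Robo receptors, and was not limited to direct partners. Of the 17 listed genes 11 were deposited, all higher in MF, and all 9 of those above the filter rose. The most abundant were the receptor Unc5b (24.4 to 51.2 FPKM in the group means), the teneurin Tenm3 (5.14 to 14.5 FPKM) and the guidance cue Slit3 (3.18 to 10.3 FPKM).

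Lrrn3 and Slitrk6, which are best known from neurons, were nearly silent in NC. Lrrn3 (chromosome 12, 41451668 to 41486431) stood at 0.0661, 0.0321 and 0.0347 FPKM in NC, from 8 counts in all, and at 0.958, 1.52 and 0.858 FPKM in MF. It rose 24.1-fold (log2 fold change 4.59, SE 0.72, edgeR adjusted p = 0.0111), and MF replicate 2 was the highest library. Slitrk6, a protein that shapes neurite growth and binds synaptic receptor phosphatases, had 2 counts over the NC libraries and 80 over the MF libraries, a ratio of 35.7 with an exact 95% counting interval from 9.58 to 300. Its FPKM in MF was 0.381, 0.449 and 0.246, again highest in replicate 2.

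Of 13 annotated contactin and contactin-associated (Cntnap) genes 2 were deposited, both contactins, and of 3 calsyntenins 1. These deposited genes were also highest in MF replicate 2. Cntn2, an axonal adhesion protein that in mice also marks the cardiac conduction system (chromosome 1, 132509427 to 132543256), stood at 0.584, 0.527 and 0.554 FPKM in NC and at 0.717, 4.0 and 1.06 FPKM in MF. MF replicate 2 stood far above the other exposed libraries, and MF replicate 1 lay close to the controls. Cntn2 rose 3.46-fold (log2 fold change 1.79, SE 0.65, edgeR adjusted p = 0.0309), but without MF replicate 2 the log2 fold change was 0.68, and with 1 library left out the edgeR adjusted p ran from 0.0244 to 0.142. Cntn1 stood at 0.163, 0.0724 and 0.0923 FPKM in NC and at 0.265, 0.555 and 0.378 FPKM in MF, a rise of 3.64-fold. Clstn2, a postsynaptic calsyntenin, stood at 0.641, 0.690 and 0.669 FPKM in MF against 0.112, 0 and 0.0471 FPKM in NC, a rise of 12.3-fold with almost no spread among the exposed libraries.

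Of the other immunoglobulin-family genes 3 of 19 annotated were deposited, and they went both ways. Ncam1, the neural cell adhesion molecule (chromosome 9, 49502136 to 49798925), stood at 3.16, 1.33 and 1.99 FPKM in NC and at 7.36, 4.12 and 6.72 FPKM in MF. It rose 2.81-fold (log2 fold change 1.49, SE 0.45, edgeR adjusted p = 0.0240). Igsf10 stood at 0.717, 0.416 and 0.541 FPKM in NC and at 1.44, 0.874 and 1.83 FPKM in MF, a rise of 2.47-fold in which MF replicate 2 was close to NC replicate 1. Igsf23 (chromosome 7, 19937305 to 19950756) was the only member that fell, at 1.38, 3.92 and 1.75 FPKM in NC and 0.115, 0.631 and 0.489 FPKM in MF. It was highest in replicate 2 of each group and fell 5.70-fold (log2 fold change -2.51, SE 0.76, edgeR adjusted p = 0.0240). In edgeR its call was lost without NC replicate 2, MF replicate 1 or MF replicate 3. Markers of naive pluripotency (3 of 12 deposited) and of germ cells (7 of 10) were highest in the same libraries: all of those deposited fell, and their summed levels were highest in NC replicate 2, at 731 and 192 FPKM, and among exposed libraries in MF replicate 2, at 182 and 19.0 FPKM. Over the groups the sums ran from 269 to 731 FPKM in NC and 64.6 to 182 in MF for pluripotency, and from 44.6 to 192 and 3.89 to 19.0 for germ cells. None of these markers was at 0 counts in a group, and their part in the Igsf23 result was not tested.

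Receptor tyrosine phosphatases are enzymes with adhesion-type extracellular parts, and 4 of 20 annotated genes were deposited. Ptpru (chromosome 4, 131768457 to 131838288) stood at 1.16, 1.13 and 1.57 FPKM in NC and at 3.21, 3.13 and 3.43 FPKM in MF, and rose 2.53-fold (log2 fold change 1.34, SE 0.40, edgeR adjusted p = 0.0237). Ptprm, a phosphatase that binds itself on the next cell (chromosome 17, 66666947 to 67354457), stood at 0.789, 0.429 and 0.690 FPKM in NC and at 3.06, 1.71 and 2.77 FPKM in MF, and rose 3.95-fold (log2 fold change 1.98, SE 0.47, edgeR adjusted p = 0.0153). Ptpru was level among the exposed libraries, whereas Ptprm was lower in MF replicate 2. Ptprd, an organiser of synapses that binds Slitrk proteins (chromosome 4, 75941238 to 78211961), stood at 0.0924, 0.0435 and 0.0763 FPKM in NC and at 0.717, 0.704 and 0.662 FPKM in MF. It rose 9.79-fold with little spread among the exposed libraries (log2 fold change 3.29, SE 0.51, edgeR adjusted p = 0.00972). Because it is spread over 22822 exonic bases, its mean of 0.383 FPKM rests on 830 counts in MF and 75 in NC. A list of 13 genes held candidate ligands of receptor tyrosine phosphatases in general, and was not limited to those of the 4 deposited. Of the 13 listed genes 6 were deposited, all higher, and the 5 above the filter rose. The most abundant were the glypicans Gpc3 (88.7 to 208 FPKM in the group means) and Gpc1 (18 to 38.6 FPKM) and the syndecan Sdc2 (5.36 to 13.7 FPKM).

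The exposed libraries were not alike, and MF replicate 2 was most often the lowest, for the adhesion genes as for all higher genes. The ratio of its FPKM to the mean of MF replicates 1 and 3 had a median of 0.614 over the 46 higher genes and 0.596 over all named genes higher in MF. MF replicate 2 was the lowest exposed library for 32 of the 46 (69.6%), against 78.8% of all named higher genes, and the highest for 9 (19.6%), against 11.1%. Those 9 were Pcdhb11, Pcdhb17, Pcdhb21, Celsr1, Clstn2, Cntn1, Cntn2, Lrrn3 and Slitrk6. The ratio was only 1.05 for Clstn2 and for Pcdhb21, and 1.15 for Celsr1. The 9 were picked out after their values were seen, and the split was not tested. Among 12 gamma protocadherins the ratio ran from 0.301 to 0.754, and among 6 beta protocadherins from 0.746 to 3.27. Summed over the 47 genes the level was 46.5, 40.3 and 54.7 FPKM in NC and 201, 107 and 184 FPKM in MF.

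**Figure D5:**
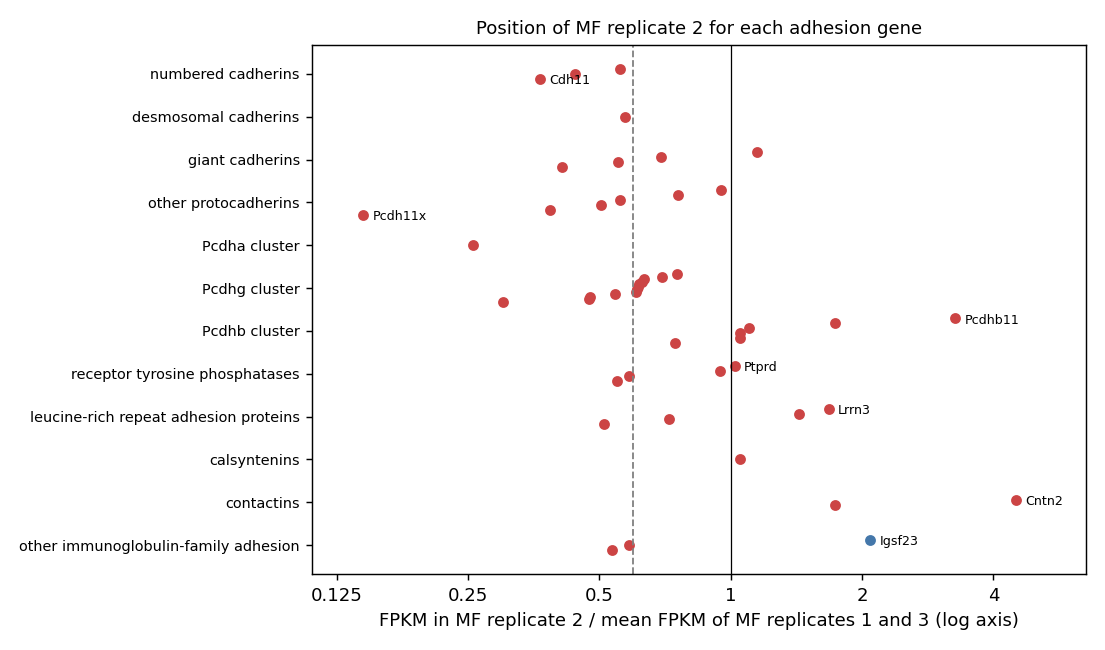
Ratio of FPKM in MF replicate 2 to the mean of MF replicates 1 and 3 for each adhesion gene by class, on a log axis; red points were higher in MF, the blue point is Igsf23, the solid line marks equality and the dashed line the median of all named genes higher in MF (0.596). Numbered cadherins and gamma protocadherins lie to the left of equality, and contactins to its right up to 4.51 for Cntn2.

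Of 12 listed neuron markers Dcx was deposited, also highest in MF replicate 2, at 0.0505, 0 and 0.0794 FPKM in NC and 0.144, 1.62 and 0.403 FPKM in MF; of 10 listed neural progenitor markers 0 were. The part of neural cells in the levels of Cntn2, Lrrn3 and Slitrk6 was not tested.

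The remaining lists had few deposited members. Of 21 tight junction and epithelial adhesion genes 3 were deposited; the claudins Cldn3 and Cldn11 rose 2.17-fold and 8.43-fold, while Cldn1 stood at 0.583 FPKM in NC and 1.39 FPKM in MF with an edgeR adjusted p of 0.0550. Of 22 synaptic partners and scaffolds Adam22 and Cbln2 were deposited, at 0.806 and 0.111 FPKM in NC and 1.84 and 0.532 FPKM in MF. Of 11 surface epithelium markers Krt14 was deposited and fell 2.16-fold, from a range of 9.32 to 14.6 FPKM in NC to 5.28 to 6.03 FPKM in MF. Of 11 endoderm markers Gata6, which mesoderm and heart also express, was deposited and rose 7.69-fold, with MF replicate 2 at 2.19 FPKM inside the control range of 0.981 to 2.93 FPKM.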

How the data were processed

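RNA was sequenced from 6 poly-A libraries, 3 NC and 3 MF, per the labels' protocols. The submitters' processing notes name HISAT2 2.0.5, featureCounts and mm10; the sources used here do not give settings, strand use or the comparison tool. Each deposited file gives the authors' raw count, FPKM and normalized signal per gene, with the gene length and the authors' comparison (log2 fold change, adjusted p-value, p-value). The ratio of the deposited count to FPKM gave the library totals, from 14929232 to 19176383, and the deposited genes take from 5.68% to 10.4% of them. At these totals 3 counts equal 0.156 to 0.201 FPKM for a gene of 1 kb; intervals cover counting error alone. Exact intervals are at 95%.

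The 48 rows without a gene name (0.0134% to 0.0390% of the totals) were left out. Counts were tested with edgeR 4.0.16 (R 4.3.3; quasi-likelihood, two-sided, group as the only term, library totals as sizes, Benjamini-Hochberg over the genes tested, threshold 0.05), for the 1651 named genes averaging 0.5 FPKM or more and for all 1983. The standard error is the log2 fold change divided by the square root of F. Alternatives used DESeq2 1.42.0, limma 3.58.1 (pseudocounts 1 and 0.1), other scalings and filters, and fewer libraries. The test was also run on simulated counts. These had less spread between libraries and fewer changed genes than the data, so they do not show how the test behaves here. GENCODE M21 matched the coordinates and lengths of all 47 members; 1982 of 2031 IDs matched reference names.

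Across genes, the deviations from the group mean of NC and MF libraries with the same number correlated at 0.40, 0.54 and 0.35 (replicates 1, 2 and 3), so the numbers were taken as pairs for a replicate block; this comes from the values, and NC replicate 3 correlated more with MF replicate 1 (0.55). Over the tested genes, pairs of libraries within a group differed by more than sampling noise (chi-square over degrees of freedom 23.5 to 188). Pairs between the groups ran from 73.3 to 757, but these genes had been selected for a difference between the groups. Members and lists were chosen with earlier results of these data known. In each class the up to 4 members with the highest mean FPKM were given in every library, with the member of the largest change; members with overlapping groups or an adjusted p of 0.05 or more would have been added, and 0 were. Of other lists up to 3 members were named by mean FPKM, and some beyond that because their values bear on a member. The neural crest marker list is not reported here.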

Additional observations from a re-analysis of the deposited data

How the results depend on the processing

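No adhesion gene changed direction under the alternatives run for it; the 22 members below the filter were not run with TMM, median-of-ratios scaling, DESeq2 or limma. The 24 members called higher became 9 with TMM, 5 with median-of-ratios scaling, 12 with a filter at 2 FPKM, 46 of 47 without a filter and 0 over the recovered tests, and the 1 called lower became 0 with the filter at 2 FPKM and over the recovered tests, where the fit without a filter also called 0 and 0. With 1 library left out the counts ran from 1 to 23 higher and from 0 to 1 lower, and without a filter from 3 to 44 higher and from 0 to 1 lower, lowest without MF replicate 3. Over all tested genes (1026 higher, 584 lower) the counts were 291 higher with TMM, 158 higher with median-of-ratios scaling, 611 and 369 with a filter at 2 FPKM, 0 and 0 over the recovered tests, 479 and 119 with DESeq2 over those tests, and from 12 to 996 higher and from 0 to 582 lower with 1 library left out. Fewer genes enter at 2 FPKM; the other causes were not tested. The replicate block called 24 members higher and 1 lower, 46 and 1 without a filter, and changed no call. The fit without a filter was combined with the block, the left-out libraries and the recovered tests, and DESeq2 with the recovered tests, after the data had been seen. Members with few NC counts, such as Pcdh11x and Slitrk6, are limited by depth.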
